A study of Gallus gallus with 6 samples.

Results

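The 10 genes described here encode core parts and output factors of the circadian clock. They are CLOCK, NPAS2, PER2, PER3, CRY1, CRY2, BHLHE40, BHLHE41, NFIL3 and TEF. All 10 were found by symbol among the 17839 protein-coding genes of the RefSeq annotation of the chicken assembly GRCg7b. Their open chromatin was read from ATAC-seq of abdominal fat in 6 chickens, an assay in which the enzyme Tn5 inserts sequencing adapters into DNA free of nucleosomes. The FL line gave 3 birds and the LL line 3 birds, with 1 library per bird. Both lines belong to the NEAUHLF population, known as a pair of broiler lines bred divergently for high and low abdominal fatness. All birds were sampled for the same tissue and no treatment is given. The sources used here do not give age, sex, batch or the time of day at sampling. The files are 1 peak list per library. A peak belonged to a clock gene if its summit lay inside the gene or within 50 kb of it. Overlapping peaks of the 6 libraries were merged into 100148 union regions, of which 191 held such a summit.

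The clock is a loop of transcription and feedback. CLOCK or its paralogue NPAS2 pairs with BMAL1 and activates genes through E-box sequences, among them the PER and CRY genes, whose proteins return to the nucleus and inhibit the same activators. BHLHE40 and BHLHE41 repress at E-boxes, while NFIL3 represses and TEF activates at D-box sequences of output genes. In mammals the clock of fat cells times the storage and release of lipid. In chicken TEF is also known as VBP.

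List lengths were 58060, 32066 and 23188 peaks for FL replicates 1 to 3, against 73410, 23316 and 15628 for LL replicates 1 to 3. The genomic background solved from the peak scores, which rises with depth, was 2.23 to 8.26 fragments over a base in FL and 5.80 to 8.73 in LL. The highest value was that of LL replicate 3, which had the shortest list and the lowest median fold enrichment of its peaks (3.06). The background also rises with the length to which fragments were extended, which is not given. It therefore does not rank the libraries by depth. Per 100 bp of the shortest peak in each list, it was highest in FL replicate 1 (5.65), with 4.90 in LL replicate 3 and 4.88 in LL replicate 1. A gene had an occupied end if any part of a peak, not its summit alone, lay at most 1 kb from either annotated end. Of 7 fat cell marker genes analysed, such as PPARG and FABP4, 6 to 7 had an occupied end in FL libraries and 5 to 7 in LL libraries. Of 6 endothelial markers it was 0 to 5 in FL and 1 to 6 in LL, with the highest counts in replicate 1 of each line, which also had the longest lists. Of 5 fibroblast markers it was 1 to 4 in FL and 0 to 5 in LL, and of 5 myeloid markers 3 to 4 in FL libraries, against 1 to 5 in LL libraries. Of 3 mesothelial markers 2 were occupied in every library, and of 4 muscle markers 2 to 3 in FL libraries, against 1 to 3 in LL libraries. The part of these cell types in the results was not tested. In whole tissue, fewer cells of a type and less open chromatin per cell cannot be told apart.

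Of the 10 clock genes, 4 had an occupied end in every library. PER2, CRY1, BHLHE40 and NFIL3 each had the same end occupied in all 6 libraries. All coding genes reached this, at either end, in 35.7% of cases. The annotation used here gives no strand, so the ends are named by coordinate and not as start or stop of transcription. For CLOCK and CRY2 an end was occupied in 5 libraries, for NPAS2 and PER3 in 4, for TEF in 3 and for BHLHE41 in 1. The strength of a peak is given by its rank by q-value within its own list and by the number of fragments piled over its summit. Neither can be compared between libraries as a level.

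**Figure D1:**
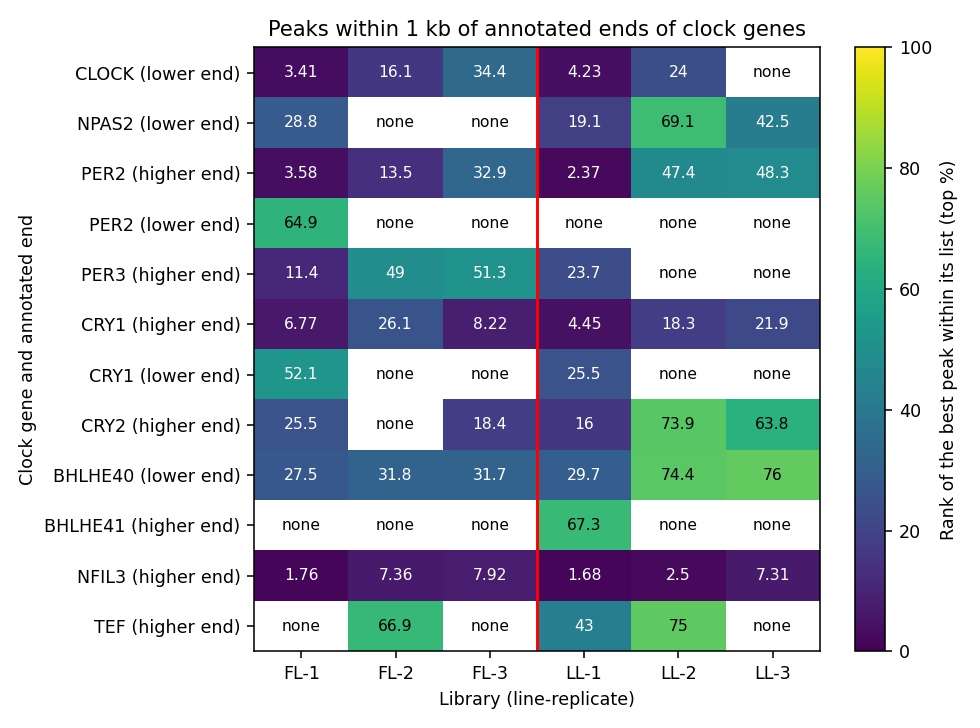
Rank by q-value of the best peak within 1 kb of each annotated end of the clock genes, as the top percentage of its own list, in 3 FL libraries left of the red line and 3 LL libraries right of it. The word none marks a library with no peak there, and ends with no peak in any library are left out. The NFIL3 row stayed within the top 7.92% in every library, whereas BHLHE41 had a single entry.

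Among the activators, CLOCK (chromosome 4, 64577282 to 64632592) had a peak at its lower-coordinate end. The summit held 205, 45 and 37 fragments in FL replicates 1 to 3, against 264 and 45 in LL replicates 1 and 2. LL replicate 3, the shortest list, had no peak there. The peak ranked in the top 3.41%, 16.1% and 34.4% of the FL lists and in the top 4.23% and 24.0% of those LL lists. The higher end of CLOCK had no peak in any library. Another coding gene, LOC121110758, has an end 765 bp away, so the region cannot be assigned to CLOCK alone.

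NPAS2 (chromosome 1, 133375538 to 133473592) differed in the libraries that called its end. At its lower end the summit held 74 fragments in FL replicate 1, with no peak in FL replicates 2 and 3. In LL replicates 1 to 3 it held 126, 29 and 39 fragments. Counted from the end, with negative positions outside the gene, the summit lay at -638 bp in FL replicate 1, against -693, -769 and -693 bp in LL replicates 1 to 3. An end of the coding gene LOC107051958 lies 14 bp from this end of NPAS2. With the distance set to 500 bp, LL replicate 1 was the sole library with an occupied end. When each list was shortened to its 15628 best peaks, the length of the shortest, LL replicates 1 and 3 had one and no FL library did.

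Among the feedback inhibitors, PER2 (chromosome 9, 5160274 to 5201322) was open at its higher end in all libraries, over a region of 1588 bp. The summit held 220, 51 and 40 fragments in FL replicates 1 to 3, against 368, 41 and 44 in LL replicates 1 to 3. It ranked in the top 3.58%, 13.5% and 32.9% of the FL lists and the top 2.37%, 47.4% and 48.3% of the LL lists. The nearest end of another coding gene lay 14510 bp away, at VAMP2.

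PER3 (chromosome 21, 279116 to 298339) had its higher end open in all FL libraries and in 1 LL library. The summit held 115, 28 and 25 fragments in FL replicates 1 to 3. It held 123 fragments in LL replicate 1, and LL replicates 2 and 3 had no peak there. The region also lies within 1 kb of VAMP3, a gene of vesicle fusion that starts or ends 290 bp from PER3. The PER3 end kept the same libraries with −log10 q of at least 5, with peaks of at least 178 bp and within 500 bp, but at equal list lengths it was called in FL replicates 1 and 3 with none of the LL libraries.

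CRY1 (chromosome 1, 53637589 to 53672680) had its higher end open in every library. The summit held 178, 41 and 70 fragments in FL replicates 1 to 3, against 307, 58 and 58 in LL replicates 1 to 3, and it ranked within the top 26.1% of every list. MTERF2, a mitochondrial transcription factor gene, has an end 1911 bp from this end of CRY1. The merged region here also comes within 1 kb of the MTERF2 end, so it cannot be assigned to CRY1 alone. The lower end of CRY1 was occupied in FL replicate 1 and LL replicate 1. Outside the 1 kb limit, with its edge 1204 bp beyond that end, a region of 595 bp was called in all 6 libraries, with summits within 36 bp of each other. Its summit held 67, 36 and 42 fragments in FL replicates 1 to 3, against 86, 40 and 30 in LL replicates 1 to 3.

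CRY2 (chromosome 5, 23477156 to 23497481) had its higher end occupied in all but FL replicate 2. The summit held 92 and 53 fragments in FL replicates 1 and 3, and 158, 34 and 40 in LL replicates 1 to 3. SLC35C1, which encodes a GDP-fucose transporter, has an end 152 bp from this end of CRY2. Inside CRY2, 9819 bp from its lower end, a region of 808 bp (23486595 to 23487402) was called in all 6 libraries. Its summit held 146, 38 and 40 fragments in FL replicates 1 to 3, against 180, 38 and 41 in LL replicates 1 to 3, with summits within 65 bp of each other. It was the single region of the 191 that lay inside its own clock gene, away from any coding gene end, and was called in every library.

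Among the E-box repressors, BHLHE40 (chromosome 12, 18769307 to 18773616) was open at its lower end in all libraries. The summit held 98, 45 and 44 fragments in FL replicates 1 to 3, against 134, 38 and 39 in LL replicates 1 to 3. The peak ranked in the top 27.5% to 31.8% of the FL lists, the top 29.7% of the LL replicate 1 list and the top 74.4% and 76.0% of the LL replicate 2 and 3 lists. It is thus a weak peak of those last lists, and with −log10 q of at least 5 it was missing from both. At equal list lengths it was called in FL replicates 2 and 3 and LL replicate 3 alone. Under each of these settings 3 of the 10 genes, PER2, CRY1 and NFIL3, kept an occupied end in all 6 libraries.

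BHLHE41 (chromosome 1, 67667949 to 67673808) had a peak at an end in LL replicate 1 alone, with 55 fragments at its higher end. An end of SSPN, the gene of the membrane protein sarcospan, lies inside BHLHE41. Farther out than the limit, with its edge 1245 bp beyond the lower end, a region of 1135 bp was called in 5 libraries. The summit there held 72, 42 and 18 fragments in FL replicates 1 to 3, against 69 and 30 in LL replicates 1 and 3. LL replicate 2 had no peak.

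Among the D-box factors, NFIL3 (chromosome Z, 44957223 to 44972682) had the strongest end of the 10 genes by its poorest rank. The higher end was open in all libraries over a region of 2181 bp. The summit held 307, 62 and 77 fragments in FL replicates 1 to 3, against 467, 93 and 75 in LL replicates 1 to 3. It ranked within the top 7.92% of every list, at 1.76%, 7.36% and 7.92% in FL and 1.68%, 2.50% and 7.31% in LL. The coding gene LOC124417514, which lies inside NFIL3, ends 379 bp from this end.

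TEF (chromosome 1, 49701507 to 49717640) was weak at its end and stronger inside the gene. Its higher end was occupied in FL replicate 2, with 34 fragments, and in LL replicates 1 and 2, with 141 and 40. Those peaks ranked in the top 66.9% of the FL list and the top 43.0% and 75.0% of the LL lists. A region of 822 bp inside TEF (49712935 to 49713756), 4478 bp from that end, was called in 5 libraries. Its summit held 287, 52 and 76 fragments in FL replicates 1 to 3, against 421 and 56 in LL replicates 1 and 2, while LL replicate 3 had no peak. It ranked in the top 2.10%, 17.5% and 10.6% of the FL lists and the top 2.24% and 29.6% of those LL lists. Exons and introns were not separated, and alternative starts of TEF were not analysed here.

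The clock regions held a larger share of regions common to all libraries than union regions in general. Of the 191, 22 (11.5%) were called in all 6 libraries, against 7.59% of all union regions and 8.45% of those with a summit within 50 kb of any coding gene. Another 72 (37.7%) were called in 1 library, against 47.3% of all regions and 44.6% of those near a coding gene. The clock regions also lay more often within 1 kb of a coding gene end, 44 of 191 (23.0%), against 15.8% of all union regions. The part of gene ends in the larger share was not tested. The pair of long lists, FL replicate 1 and LL replicate 1, alone shared 47 regions, and LL replicate 1 alone held 43. How often all union regions were shared by that pair alone was not counted, so the 47 cannot be called particular to clock genes. The share of a library's clock regions that no other library called was set beside the same share of its regions near any coding gene. It was 10.9% against 11.3% in FL replicate 1, 12.5% against 34.9% in FL replicate 2 and 16.4% against 10.7% in FL replicate 3. In LL replicate 1 it was 26.7% against 31.1%, and in LL replicates 2 and 3 it was 0% against 3.34% and 4.38%. It was thus well below the share near coding genes in FL replicate 2, above it in FL replicate 3 and near it in FL replicate 1. No test was made of these shares, since regions of 1 gene share their surroundings.

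**Figure D2:**
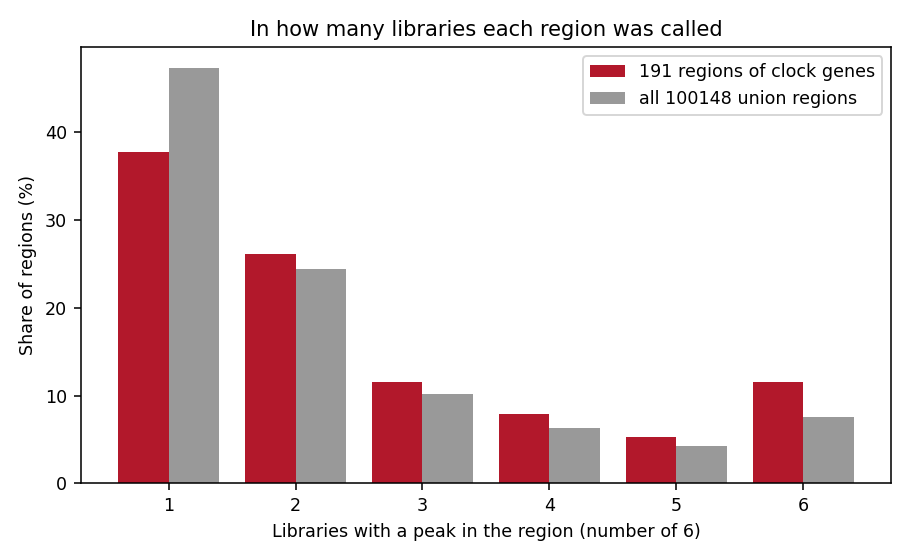
Share of regions, in percent, by the number of libraries with a peak in them, for the 191 regions of the clock genes in red and all 100148 union regions in grey. The red bar stands above the grey one at 6 libraries (11.5% against 7.59%) and below it at 1 library (37.7% against 47.3%).

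Most of the shared regions lay at gene ends, and often at those of neighbours. Of the 22 regions called in all libraries, 4 lay at an end of the clock gene itself, 14 at an end of another coding gene within the window, and 4 away from coding gene ends. In all, 18 of the 22 (81.8%) lay within 1 kb of a coding gene end, against 65.3% of the 7605 regions of the genome called in every library. Of those 7605, 7381 had a summit within 50 kb of a coding gene, and their share at gene ends was not counted. Of the 16 regions at a clock gene's own end, 8 also lay within 1 kb of another coding gene's end. The windows held between 2 further coding genes (BHLHE41 and NFIL3) and 8 (CRY2). Around PER3, all 3 regions called in every library lay at ends of its neighbours: ERRFI1 and SLC45A1, PARK7 and TNFRSF9, and VAMP3 and CAMTA1. Others lay at SRD5A3 for CLOCK, RPL31 for NPAS2, BTBD11 and MTERF2 for CRY1, SLC35C1 for CRY2, SSPN for BHLHE41, AUH for NFIL3 and TOB2 for TEF. PER2 was the single clock gene with none of these. The 22 regions were 1104.5 bp wide at the median, against 987 bp for all regions called in 6 libraries, and the 72 regions of 1 library had a median of 244 bp.

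Apart from the regions in CRY2 and beside CRY1 described above, the regions away from coding gene ends and present in every library were near BHLHE40 and PER2. The BHLHE40 region (18751295 to 18752060) lay 17247 bp below the gene, that is at lower coordinates, outside coding genes. Its summit held 145, 40 and 30 fragments in FL replicates 1 to 3, against 182, 47 and 48 in LL replicates 1 to 3, and the summits lay within 88 bp of each other. The PER2 region (5111537 to 5112264) lay 48010 bp below the gene and inside CAB39, a scaffold gene of energy-sensing kinases, with 104, 35 and 43 fragments in FL and 150, 31 and 38 in LL.

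By the best poorest rank over the libraries that called a region, the leading region was at the gene's own end for CLOCK, CRY1 and NFIL3. Each of these regions also lay within 1 kb of another coding gene's end, that of LOC121110758, MTERF2 and LOC124417514 in turn. The leading region was at neighbours' ends alone for PER3 (VAMP3 and CAMTA1, within the top 31.7% of every list) and for TEF (TOB2, top 29.5%). The PER3 one (301966 to 302853) held 138, 44 and 34 fragments in FL, against 268, 41 and 43 in LL, with all 6 summits within 22 bp of each other. For NPAS2, PER2, CRY2 and BHLHE41 it was a region of 1 library.

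**Figure D3:**
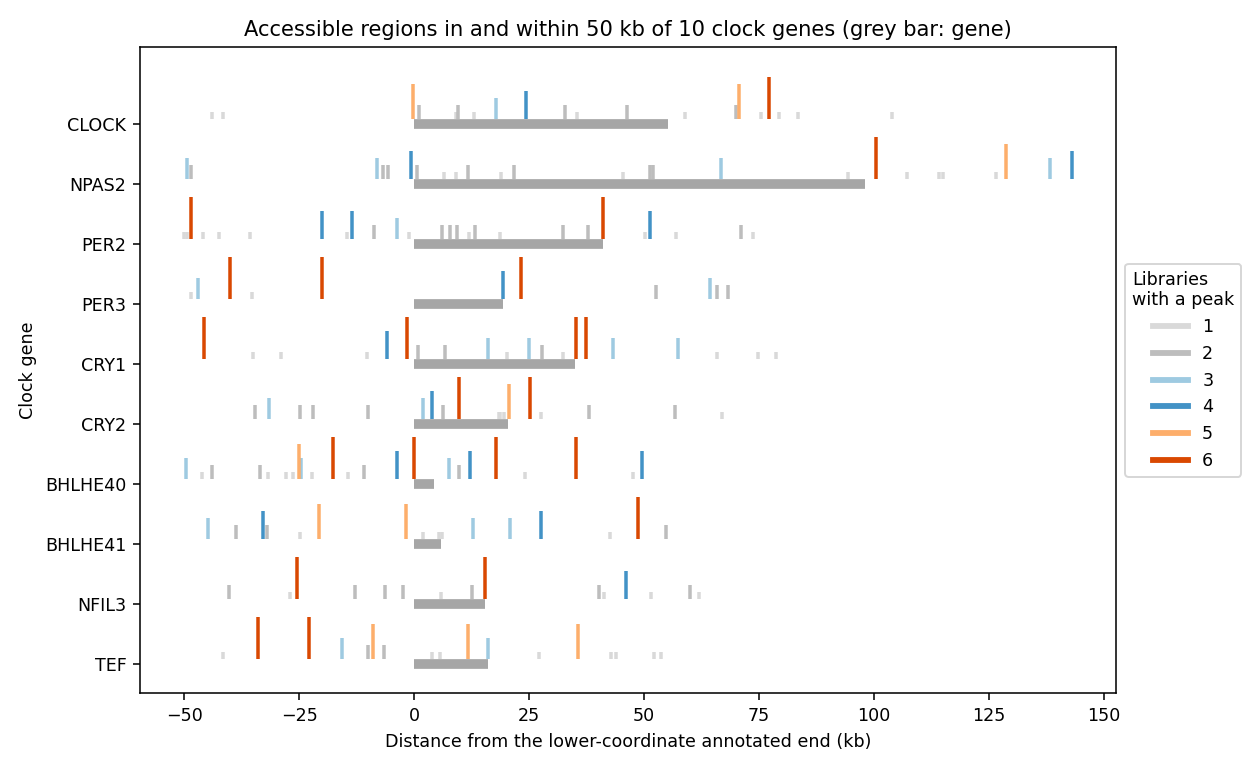
Position of the regions of each clock gene, in kb from its lower-coordinate annotated end, with the gene as a grey bar. Each vertical line is 1 region, and its height and colour give the number of libraries, from 1 to 6, with a peak in it. Regions called in all 6 libraries stand at an end of PER2, CRY1, BHLHE40 and NFIL3, and those around PER3 stand outside the gene.

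The density of regions differed widely among the 10 genes. BHLHE40 had the densest surroundings, with 23 regions in its window or 22.0 per 100 kb, a higher density than 96.0% of coding genes. PER2 followed with 26 regions and 18.4 per 100 kb, above 87.2% of coding genes. BHLHE41 (15.1), CRY2 (15.0), CRY1 (14.8) and TEF (14.6) lay close together, as did NFIL3 (13.0), CLOCK (12.9) and NPAS2 (12.6). PER3 was lowest at 9.23 regions per 100 kb, above 30.3% of coding genes, although its density of regions called in all 6 libraries, 2.52 per 100 kb, was above 80.7% of them. The median of the 10 genes was 14.7 regions per 100 kb, against 12.1 for all coding genes. For regions called in all 6 libraries the median was 1.69 per 100 kb, against 0.988, and the highest were BHLHE40 with 3.83 and CRY1 with 2.96. The union pools the 6 libraries, so these densities have no spread over samples.

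**Figure D4:**
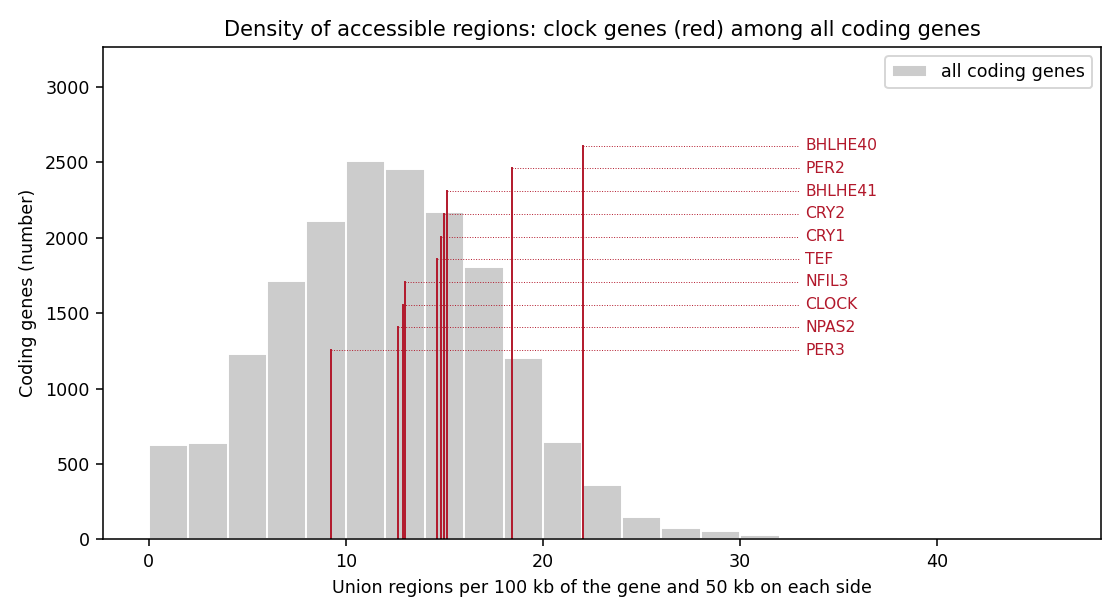
Histogram of the number of union regions per 100 kb of each coding gene and 50 kb on each side, for 17839 coding genes in grey, with the 10 clock genes as red lines whose heights carry no value. PER3 stands lowest at 9.23 and BHLHE40 highest at 22.0.

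The next question was whether the lines differed around the clock genes. No region was called in every FL library and absent from every LL list, a pattern of 0.209% of union regions, and none in all LL and no FL libraries, a pattern of 0.0849%. A difference of at least 2 libraries was found for 5 regions (2.62%) with more FL libraries, against 3.49% of all union regions, and for 5 (2.62%) with more LL libraries, against 3.29%. These shares lie near the background.

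The FL regions were the PER3 end, a region near an end of CAB39 below PER2, one 5598 bp below CRY1, one inside SSPN near BHLHE41 and one 48467 bp below NPAS2. The first 4 were called in every FL library and LL replicate 1, and the last in FL replicates 2 and 3. The LL regions were the NPAS2 end, a second one inside TBC1D8 near NPAS2, one inside CLOCK, one 3256 bp below BHLHE40 and one 6335 bp below TEF. The first 4 were called in every LL library and FL replicate 1, and the last in LL replicates 1 and 2. The region inside CLOCK (64601323 to 64602736) held 82 fragments in FL replicate 1, and 164, 31 and 32 in LL replicates 1 to 3. In 8 of these 10 regions the opposite line was thus represented by its longest list.

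At gene ends, PER3 was the 1 clock gene of 10 with at least 2 more FL libraries, against 6.21% of coding genes. NPAS2 was the 1 with at least 2 more LL libraries, against 1.08%. The number of clock genes with an occupied end was 8, 7 and 7 in FL replicates 1 to 3, against 10, 8 and 6 in LL replicates 1 to 3. The FL mean was 7.33 ± 0.577 and the LL mean 8 ± 2 (SD, n = 3 each). They differed by -0.667 genes (exact two-sided permutation test, p = 0.8), less than the SD of the LL libraries, and the groups overlapped. Among all coding genes, 69.5%, 56.6% and 54.7% had an occupied end in FL replicates 1 to 3, against 72.3%, 48.6% and 41.5% in LL replicates 1 to 3, so replicate 1 of each line led here too. The difference was 0.333 without LL replicate 1 and 0.667 at equal list lengths.

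Counted per 10000 peaks of the list, the clock windows held 23.3, 16.8 and 26.3 peaks in FL replicates 1 to 3, against 21.9, 24.9 and 26.9 in LL replicates 1 to 3. The FL mean was 22.1 ± 4.83 and the LL mean 24.6 ± 2.49 (SD, n = 3 each). The groups overlapped, with a difference of -2.43 (exact two-sided permutation test, p = 0.6). FL replicate 2 had the lowest value, and without it the difference was 0.219. Every FL list reached shorter peaks (shortest 112 to 146 bp) than every LL list (166 to 178 bp). With peaks of at least 178 bp in every list the difference was -1.23. At equal list lengths it was -1.07, and without LL replicate 3 it was -1.27.

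By gene, the largest difference with all libraries and peaks kept was at NPAS2, with 3.44, 0.936 and 2.16 peaks per 10000 in FL replicates 1 to 3, against 2.72, 3.00 and 3.84 in LL replicates 1 to 3. FL replicate 1 lay between LL values and the other FL libraries below them. The FL mean was 2.18 ± 1.25 and the LL mean 3.19 ± 0.580 (SD, n = 3 each), a difference of -1.01 (exact two-sided permutation test, p = 0.3). The smallest p that 3 against 3 libraries allow is 0.1, so no comparison of the lines could pass 0.05, and a larger p does not show that the lines are alike. The NPAS2 difference was -1.64 without FL replicate 1, -0.388 without FL replicate 2 and -1.71 at equal list lengths. Other genes had larger differences in size than NPAS2 under some settings. CRY2 did with −log10 q of at least 5 (-1.24, against -1.11 for NPAS2). TEF did without LL replicate 1 (-1.45, against -1.24) and without FL replicate 3 (-1.28, against -0.998). Without LL replicate 3, TEF (-0.871) and PER2 (0.712) did, against -0.684 for NPAS2. Without FL replicate 2, PER2 (1.14), TEF (-0.648), CLOCK (0.480) and BHLHE40 (-0.456) did, against -0.388 for NPAS2. TEF had 1.89, 2.18 and 3.45 peaks per 10000 in FL replicates 1 to 3, against 2.04, 4.72 and 3.20 in LL replicates 1 to 3, with the highest value in LL replicate 2. Its means were 2.51 ± 0.827 in FL, against 3.32 ± 1.34 in LL (SD, n = 3 each; difference -0.811, exact permutation p = 0.6). PER2 had 2.58, 1.25 and 3.88 in FL replicates 1 to 3, against 2.86, 0.858 and 2.56 in LL replicates 1 to 3, and replicate 2 was lowest in each line. Its means were 2.57 ± 1.32 in FL, against 2.09 ± 1.08 in LL (SD, n = 3 each; difference 0.478, exact permutation p = 0.6). The replicate spread was uneven for several genes. CRY1 had 2.58, 2.49 and 2.59 in FL replicates 1 to 3, against 2.32, 3.43 and 2.56 in LL replicates 1 to 3 (exact permutation p = 0.9). BHLHE40 had 2.93, 3.12 and 3.02 in FL, against 2.59, 3.86 and 3.84 in LL, and lay between the LL values in every FL library (exact permutation p = 0.4). CRY2 had 2.41, 0.624 and 2.59 in FL, against 2.04, 2.57 and 1.92 in LL, with FL replicate 2 far below the rest (exact permutation p = 0.9).

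For the other genes the means lay close together and the lines overlapped. CLOCK averaged 2.07 ± 0.514 in FL, against 1.85 ± 0.114 in LL, and PER3 1.86 ± 0.303 in FL, against 1.71 ± 0.211 in LL. BHLHE41 averaged 1.83 ± 0.0919 in FL, against 2.15 ± 0.423 in LL, and NFIL3 1.66 ± 0.643 in FL, against 1.87 ± 0.642 in LL (SD, n = 3 each). For these 4 genes the exact permutation p was 0.4 to 0.8. The mean was higher in FL for CLOCK, PER2 and PER3 and higher in LL for the other 7 genes, and 42.4% of coding genes were higher in FL. With Benjamini-Hochberg adjustment over the 17839 coding genes, the exact permutation p was 1 for each of the 10 genes. None of the 10 genes had all FL libraries above all LL libraries, against 2.98% of coding genes, or the reverse, against 4.1%.

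**Figure D5:**
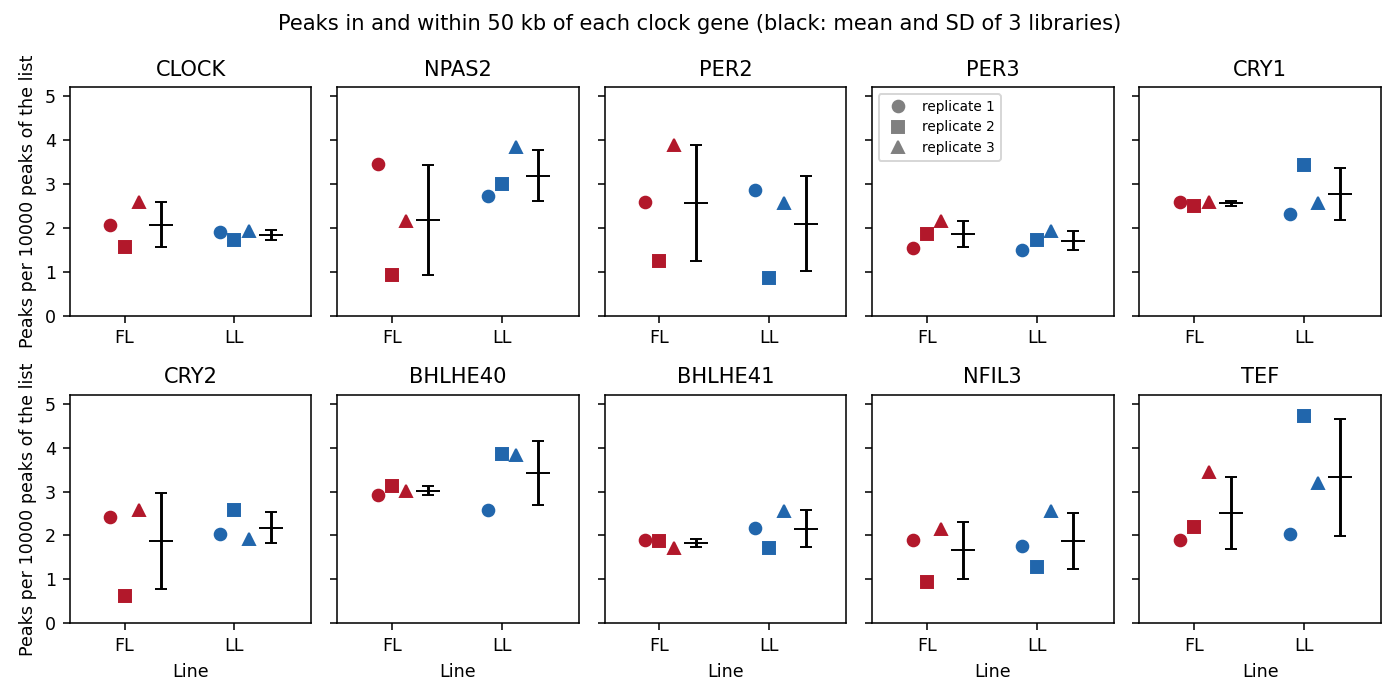
Peaks in and within 50 kb of each clock gene per 10000 peaks of the library's list, for FL in red on the left and LL in blue on the right of each panel, with symbols for replicates 1 to 3 and the mean and SD of 3 libraries in black. FL and LL points overlap in all 10 panels, and NPAS2 shows the largest difference of means, 2.18 in FL, against 3.19 in LL.

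Of 30 further genes of the clock pathway, 27 were found in the annotation, and 16 of these (59.3%) had an end occupied in all 6 libraries, against 35.7% of all coding genes. They include BMAL1, the partner of CLOCK, BMAL2 and HLF, a D-box activator related to TEF. Genes that control the stability of clock proteins in this group were CSNK1D and CSNK1E, kinases of the PER proteins, FBXL21, which marks CRY proteins for degradation, and BTRC and FBXW11, which mark PER proteins. TIPIN, SIRT1, NOCT, KDM5A, PRKAA1, CREB1 and FBXW7 were also among the 16. FBXW11 and BTRC had the best poorest ranks, within the top 6.15% and 13.3% of every list. The BMAL1 end ranked in the top 1.78%, 16.8% and 16.9% of the FL lists and the top 1.39%, 18.1% and 28.6% of the LL lists.

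RORA, a nuclear receptor that activates BMAL1, OPN4, which encodes the light-sensing pigment melanopsin, and USP2, a deubiquitinase, had no occupied end in any library. The nuclear receptors NR1D1 and NR1D2, which repress BMAL1, had an end occupied in 2 and 3 libraries. RORB had an end occupied in 3 FL libraries and 1 LL library, and AANAT, the rhythmic enzyme of melatonin synthesis, in 1 FL library and 3 LL libraries. These 2 genes are 1 of 27 in each direction (3.70%), against 6.21% of coding genes with at least 2 more FL libraries and 1.08% with at least 2 more LL libraries.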

How the data were processed

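MACS3 3.0.0b1, bedtools 2.30.0, SAMtools, BWA, Trim Galore, FastQC and the build GRCg7b are listed, without settings, in the submitters' processing notes. Duplicate removal and any Tn5 shift are not stated there. Replicates were not pooled: each library has its own deposited list. The deposited lists give a score (10 times −log10 q, rounded down), a fold enrichment at the summit (a ratio computed by the authors' peak caller within 1 library), −log10 q, −log10 p and the offset of the summit. Pileups and ranks are each list's own values, so those of different libraries are printed side by side and not tested. The deposited lists hold no read totals. The summit pileup and local background were solved from the deposited fold enrichment and −log10 p, within a relative tolerance of 1e-04. This gave a solution for 100% of peaks, and 100% of 19917 simulated pileups were recovered. Pileups and backgrounds depend on the length to which fragments were extended, which is not given.

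Regions were merged at 1 bp overlap. The annotation (RefSeq, GRCg7b) has no strand, exons or sequence, so the planned test of gene starts used either annotated end within 1 kb, the planned promoter motif counts were not run, and no sequences are printed. Outermost summits inside the 50 kb limit lay 41526 to 49974 bp from their gene, and the first outside at 50593 to 63645 bp. Lines were compared by exact permutation of the 20 assignments of libraries, adjusted over all 17839 coding genes in place of the planned adjustment over the 10 members, in Python 3.11.15 with NumPy 2.4.6 and pandas 2.3.3. Of regions, the text names those called in all 6 libraries and the best-ranked per gene. Regions with at least 2 more libraries of one line, those outside the 1 kb limit, the region inside TEF, RORB, AANAT, NR1D1 and NR1D2 were chosen after their values were seen. Replicates are different birds, per the series' design text. The members and lists were chosen with earlier results of these data known. Alternatives covered the q threshold, list length, peak width, window, overlap, end distance and each library left out. The results of some neighbouring and pathway genes are not reported here.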

Additional observations from a re-analysis of the deposited data

How the results depend on the processing

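No comparison of the lines could pass 0.05, so the alternatives bear on direction and size. The total of clock peaks per 10000 differed by -2.43 between FL and LL and lay between -4.51 and 0.219 when 1 library was left out, reversed without FL replicate 2. The number of clock genes with an occupied end differed by -0.667, was 0.667 with every list cut to 15628 peaks and 0 at a −log10 q minimum of 5, and lay between -1.67 and 0.333 when 1 library was left out, reversed without LL replicate 1. The 22 regions called in all libraries numbered 16 at a −log10 q minimum of 5, 17 at equal list lengths and 19 with peaks of at least 178 bp. They numbered 10 with a window of 10 kb, and 22 to 27 when 1 library was left out. The matching shares of all union regions were not counted. Regions called in one line alone numbered 0 to 4 for FL and 0 to 4 for LL when 1 library was left out. There were 4 FL regions without LL replicate 1, 4 LL regions without FL replicate 1 and 1 LL region at equal list lengths. With 1 library left out the pattern involves fewer lists. Its share of all union regions was not counted under these settings. The causes were not tested.

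By gene, the difference in peaks per 10000 changed sign at a −log10 q minimum of 5 for CLOCK (-0.0864), CRY1 (0.0791), BHLHE41 (0.168) and NFIL3 (0.0748), at equal list lengths for BHLHE41 (0.640), with peaks of at least 178 bp for CRY1 (0.111) and with a window of 10 kb for CLOCK (-0.316) and BHLHE41 (0.0262). It ranged over both signs when 1 library was left out for CLOCK (-0.0344 to 0.480), PER2 (-0.177 to 1.14), PER3 (-0.000578 to 0.303), CRY1 (-0.440 to 0.118), CRY2 (-0.661 to 0.321) and NFIL3 (-0.503 to 0.153). BHLHE40, NPAS2 and TEF kept a negative difference under every alternative run, but its size moved when 1 library was left out: -0.828 to -0.192 for BHLHE40, -1.64 to -0.388 for NPAS2 and -1.45 to -0.112 for TEF.

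With the replicate number as a block, the differences of -2.43 and -0.667 were the same in size, since the groups are balanced. The exact sign-flip p was 0.75 for each, and the smallest that 3 pairs allow is 0.25. Deviations of same-numbered libraries correlated at 0.312, 0.152 and -0.000359 over union regions, and FL replicate 2 correlated best with LL replicate 3 (0.291). The labels give a shared number and state no pairing. These correlations cannot show whether there was one, as the replicate 1 lists were also the longest of each line. The alternative of either gene end for the start became the main measure. The lists hold called peaks only, so a missing peak shows that none was called with that library's depth and signal.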
